A study of Homo sapiens with 15 samples.

Results

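The mRNA levels of TRAIL and of a group of death receptors and decoy receptors were followed in breast cancer cells as RBM47, an RNA-binding protein, was induced. The 10 genes were taken by name from the 23368 genes of the deposited RNA-seq table: TNFSF10 (TRAIL), TNFRSF10A, TNFRSF10B, TNFRSF10C, TNFRSF10D, TNFRSF11B, FAS, TNFRSF1A, TNFRSF12A and TNFRSF21. There were 15 libraries from 3 clones, each grown without doxycycline and with 1, 2.5, 5 or 25 ng/ml of it, with 1 library for each clone and dose. WT6 and WT10 carried a doxycycline-inducible wild type RBM47, and MUT3 carried the inducible RBM47-I281fs mutant, a frameshift that shortens the protein. The study saw little of this mutant protein despite strong mRNA expression, and judged it unstable and inactive. RBM47 values given here for MUT3 are mRNA and do not measure protein. The labels gave the line of all clones as MDA231, while the study's methods derived WT6 from CN34-BrM2 and WT10 and MUT3 from 231-BrM2, brain metastatic derivatives of human breast cancer lines. Every clone grew from a single cell, and the untreated libraries carried the transgene as well, so that clone, line and transgene cannot be told apart. TNFSF10 was in a gene list that the study drew from these same libraries, and its values here are therefore not independent of that list.

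TRAIL is a ligand that starts apoptosis by gathering its receptors at the cell surface. TNFRSF10A (DR4) and TNFRSF10B (DR5) carry a death domain, through which the adaptor FADD recruits and activates caspase 8. TNFRSF10C (DcR1) and TNFRSF10D (DcR2) bind TRAIL without a working death domain, and TNFRSF11B, osteoprotegerin, is a secreted decoy. FAS, TNFRSF1A (TNF receptor 1) and TNFRSF21 (DR6) are death domain receptors outside the TRAIL branch, and TNFRSF12A (Fn14) is the TWEAK receptor and lacks a death domain.

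TNFSF10 lies on the minus strand of chr3:172223298-172241265 (GRCh37, GENCODE 44), where a pseudogene, TBPL1P1, overlaps it on the opposite strand. The RefSeq promoter window of TNFSF10, 250 bases before to 50 after the start, held 1 match to GAAANNGAAA, read on either strand (TTTCNNTTTC on the other). This is the pattern of interferon-stimulated response elements, and it is shown because TRAIL is known as an interferon-responsive gene. The match, in capitals, began 187 bases before the start, within the stretch chr3:172523598-172523627 of GRCh38.p14, printed from the minus strand:
TNFSF10 promoter: gaggagcttcTTTCAGTTTCcctcctttcc
Of all 35116 RefSeq windows of this length, 3.57% held the pattern. The windows of FAS (3 starts), TNFRSF1A and TNFRSF21 did not hold these letters, and TNFRSF12A had no entry in the RefSeq table. Those of TNFRSF10A, TNFRSF10B, TNFRSF10C, TNFRSF10D and TNFRSF11B are not reported here.

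The paper's RBM47 binding data gave no enriched motif in the top peaks, and a polyU sequence around crosslink-induced mutations. As a description only, the 3′UTRs were searched on the sense strand for ATTTA, the core of AU-rich elements. ATTTA was held by 68.9% of 18918 human 3′UTRs, at a median of 1.58 per kb. The 984-base 3′UTR of TNFSF10 held it 2 times, or 2.03 per kb, at bases 838 and 974, in capitals in these 2 stretches:
TNFSF10 base 838: gtgctcatATTTAttgttgtt
TNFSF10 base 974: tacttttaATTTAatatga
TNFRSF21, on the minus strand of chr6:47199268-47277641, held it 6 times in 1233 bases (4.87 per kb), and the last copy is set below beside those of TNFSF10:
TNFRSF21 base 1205: gtgtactaATTTAttaataaa
TNFRSF10D held the most, 12 copies (5.26 per kb), followed by FAS with 7 (5.24 per kb). TNFRSF10A and TNFRSF10B each held 5 (4.03 and 1.97 per kb), TNFRSF11B 3 (3.67), TNFRSF12A 2 (3.59), TNFRSF10C 1 (2.42) and TNFRSF1A none. A copy of these letters is a description of the sequence and not a binding site.

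Reads counted on genes ranged from 14955172 to 44771871 per library (median 18152381), and the values are normalized counts, that is, reads divided by a size factor per library, so that 1 read was worth 0.397 to 1.36. In WT6, untreated cells had 258 of RBM47 itself and those at 25 ng/ml had 10425, with 8094 at 2.5 ng/ml and 3966 at 5 ng/ml between. It went from 168 to 19877 in WT10 and from 73.8 to 22084 in MUT3. Transgene reads and those of the cells' own RBM47 are summed in these values. The mesenchymal and epithelial line markers VIM, CD44, KRT8, KRT18 and EGFR summed to between 91275 and 152943 in every library. VIM was the largest part (50755 to 104639), so the sum says little of the others. In WT6, EGFR ranged from 1484 to 5971, KRT8 from 13843 to 31010 and KRT18 from 10036 to 24036. ESR1 and PGR summed to 3.74 to 29.01, the 4 leukocyte markers to 0 to 6.98, with CD3E at 0 throughout, and the 3 endothelial markers to 4.38 to 11.9. The WT6 libraries at 5 and 25 ng/ml stood apart from all others: relative to its clone's untreated library, the quintile of shortest transcripts had a median log2 difference of 0.60 and 0.58 and the quintile of longest of -0.41 and -0.46, whereas in every other library these medians lay between -0.08 and 0.06. WT6 slopes whose call or direction changed without these 2 libraries are given both ways.

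**Figure D1:**
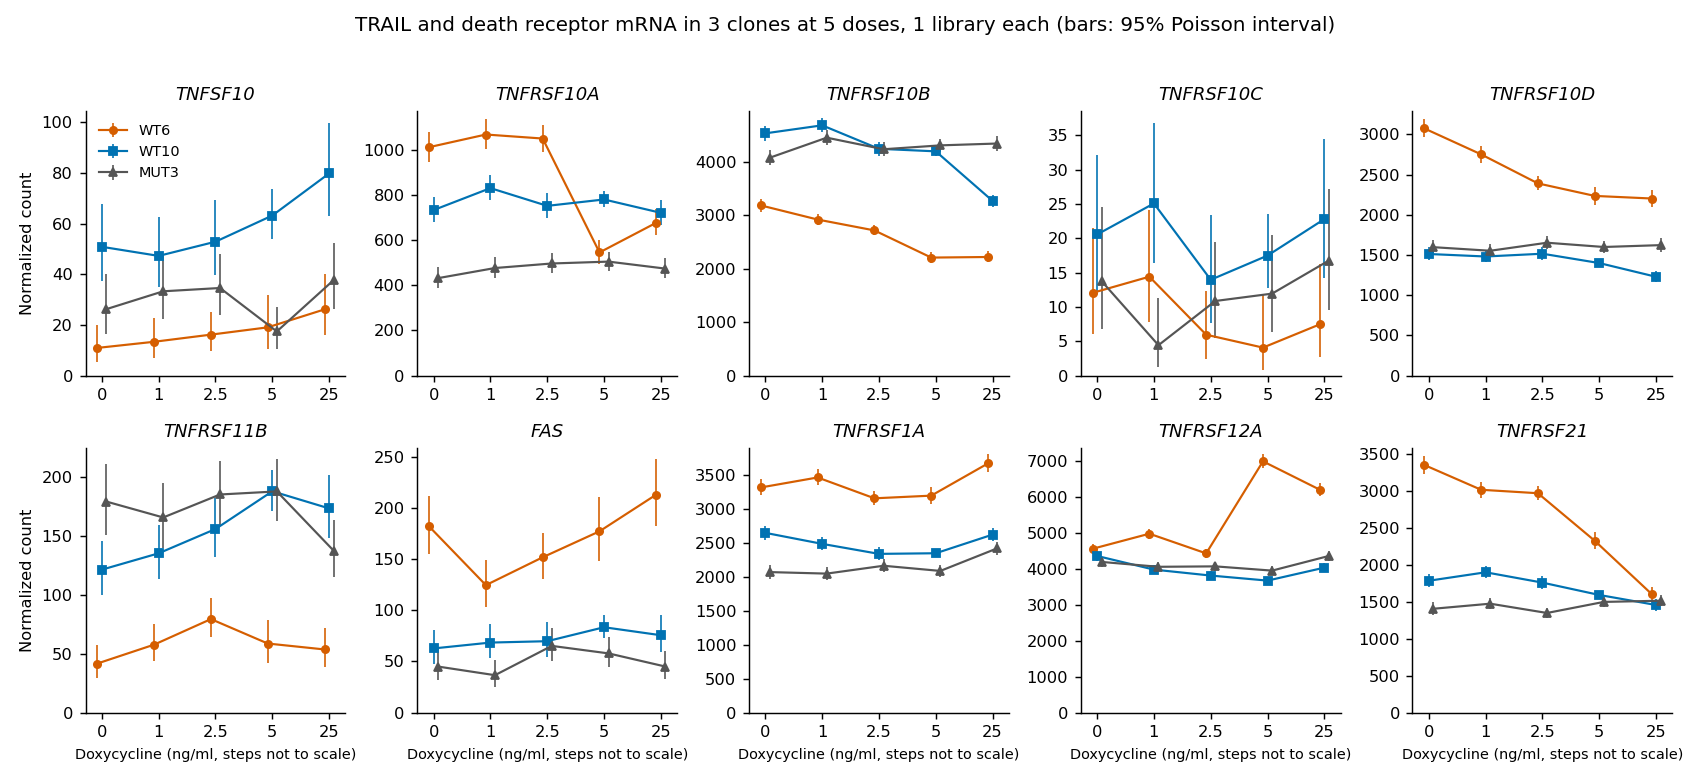
Normalized count (vertical axis, from 0) of each of the 10 genes against doxycycline dose in ng/ml (horizontal axis, equal steps) in WT6 (orange circles), WT10 (blue squares) and MUT3 (grey triangles). Each point is 1 library and the bars are exact 95% Poisson intervals of its reads; TNFRSF10B ends below its untreated level in WT6 and WT10 (ratios of 25 to 0 ng/ml of 0.697 and 0.721) and not in MUT3 (1.06).

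The ligand was scarce. TNFSF10 was measured in WT6 at 10.96, 13.4, 16.2, 19.1 and 26.2 normalized counts at 0, 1, 2.5, 5 and 25 ng/ml, from 10 to 21 reads. In WT10 it was at 50.8, 47.3, 52.9, 63.2 and 79.8 (47 to 159 reads), and in MUT3 at 26.3, 33.3, 34.6, 17.5 and 37.7 (19 to 36 reads). In WT6 every library was higher than the one at the next lower dose, a pattern that 6.32% of the 12644 tested genes showed, and in MUT3 the highest and the lowest values were at neighbouring doses, 25 and 5 ng/ml. All 5 WT10 libraries lay above all libraries of the other clones. The WT6 and MUT3 ranges overlapped.

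The dose response was tested as the slope of log2(normalized count + 1) on log2(dose + 1) with limma, so that a slope is a log2 change per unit and the doses span 4.70 units. Of the 12644 genes with a mean of at least 10 in each clone, 57.5% had an adjusted p under 0.05 in WT6 and 20.0% in WT10. In MUT3 the percentage was 0, where 295 genes had an unadjusted p under 0.05 and 0 of the 9 tested members did, and edgeR called 1 gene and DESeq2 8. TNFSF10 rose with dose in WT6 by 0.25 per unit (SE 0.10, limma adjusted p = 0.0359), and the normalized count at 25 ng/ml was 2.39 times that without doxycycline (95% counting interval 1.08 to 5.68). In WT10 the slope was 0.16 (SE 0.06, limma adjusted p = 0.0920), with a ratio of 1.57 (1.08 to 2.31). In MUT3 it was 0.05 (SE 0.08, limma adjusted p = 1.00), with a ratio of 1.44 (0.816 to 2.59). The mean wild type slope exceeded the MUT3 slope by 0.15, with 2 standard errors reaching from -0.05 to 0.36 (limma adjusted p = 0.272). A difference between wild type and mutant was thus not detected with these libraries. The WT6 call was lost with DESeq2 (adjusted p = 0.0509), without the 25 ng/ml libraries (slope 0.29, limma adjusted p = 0.226), without WT6 at 5 and 25 ng/ml (0.29, 0.709) and when length and GC trends were taken out of the log2 values (0.18, 0.146). It was also lost without the WT6 library at 0 ng/ml (limma adjusted p = 0.122), at 1 ng/ml (0.0648) or at 25 ng/ml (0.259). The WT10 slope passed the threshold without the MUT3 library at 5 ng/ml (limma adjusted p = 0.0325).

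**Figure D2:**
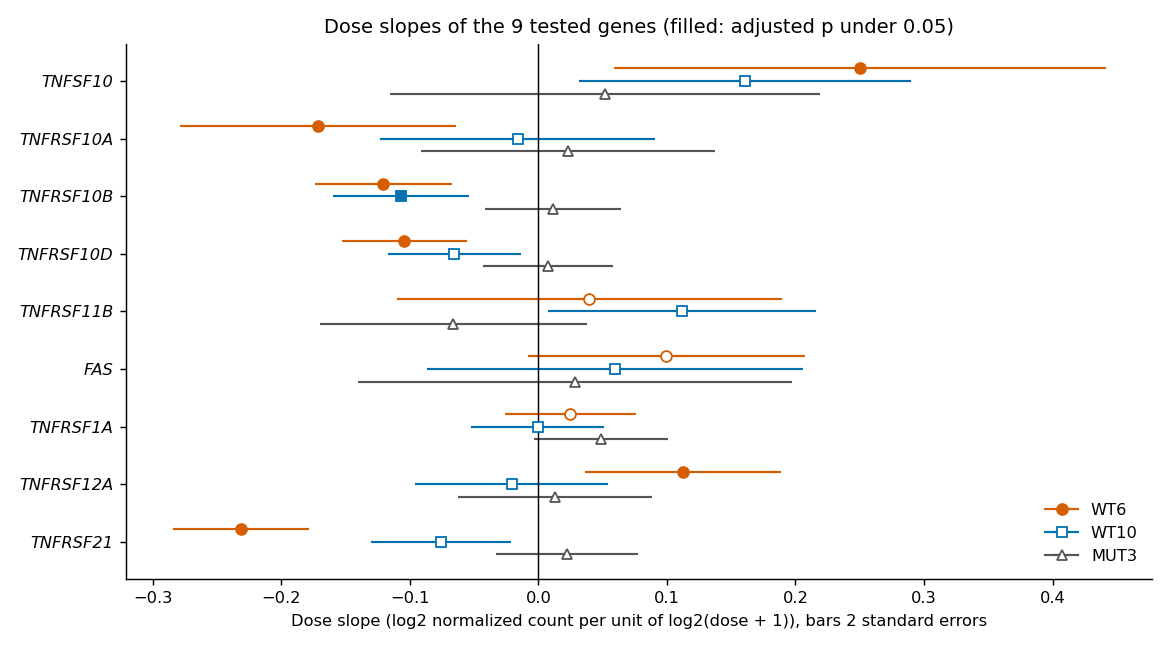
Dose slope (horizontal axis, log2 normalized count per unit of log2(dose + 1)) of the 9 tested genes in WT6 (orange circles), WT10 (blue squares) and MUT3 (grey triangles), with bars of 2 standard errors from the limma fit and filled symbols where the adjusted p was under 0.05. TNFRSF10B is the gene with filled symbols in both wild type clones (-0.12 and -0.11), and no MUT3 symbol is filled.

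Among the receptors that signal, TNFRSF10B (DR5), on the minus strand of chr8:22877646-22926544 (GRCh37), had the same direction in both wild type clones. In WT6 it was at 3188, 2923, 2719.7, 2211 and 2222 normalized counts in order of dose. In WT10 it was at 4537, 4687, 4248, 4200.1 and 3272, and in MUT3 at 4082, 4456, 4239, 4312 and 4346. The WT6 libraries at 5 and 25 ng/ml were its lowest, WT10 was low at 25 ng/ml, and in MUT3 the untreated library was the lowest. TNFRSF10B fell with dose in WT6 (slope -0.12, SE 0.03, limma adjusted p = 0.00163) and in WT10 (-0.11, SE 0.03, limma adjusted p = 0.0109), and the MUT3 slope was 0.01 (SE 0.03, adjusted p = 1.00). The ratio of 25 to 0 ng/ml was 0.697 in WT6 (95% counting interval 0.657 to 0.740), 0.721 in WT10 (0.688 to 0.755) and 1.06 in MUT3 (1.02 to 1.12). It was the 1 member of 9 tested that was called in both wild type clones in the same direction, and 7.34% of all tested genes were called lower in both. The mean wild type slope was lower than the MUT3 slope by 0.13 log2 (estimate -0.13, SE 0.03, limma adjusted p = 0.0136). Between WT10 and MUT3 alone, the sister clones of 1 line by the study's methods, the difference was -0.12 (SE 0.04, limma adjusted p = 0.0740). In WT10 the call rested on the library at 25 ng/ml, without which the slope was -0.05 (limma adjusted p = 0.612). The TNFRSF10B transcript, at 3998 bases, is the longest of the group. With length and GC trends removed its slopes were -0.07 in WT6 (limma adjusted p = 0.00233) and -0.09 in WT10 (0.000778). Both were still called. With each clone fitted alone, the WT6 slope was -0.12 and did not pass (limma adjusted p = 0.0525). Without WT6 at 5 and 25 ng/ml the WT6 slope was -0.13 but no longer passed (limma adjusted p = 0.250), and the difference between WT10 and MUT3 did (limma adjusted p = 0.00379), as it also did without WT6 at 5 ng/ml (0.00821), WT6 at 25 ng/ml (0.0401) or WT10 at 0 ng/ml (0.0468). The difference of the averaged wild type slope from MUT3 was lost without WT10 at 25 ng/ml (limma adjusted p = 0.100), MUT3 at 0 ng/ml (0.0946) or MUT3 at 25 ng/ml (0.224).

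TNFRSF10A (DR4), on the minus strand of chr8:23047965-23082615, was at 1010.4, 1066, 1049, 545 and 676 in WT6, 732, 829, 751, 779 and 720.1 in WT10, and 431, 476, 496, 504 and 474 in MUT3. In WT6 it stepped down between 2.5 and 5 ng/ml, where the ratio was 0.520. Over all 5 doses the WT6 range (545 to 1066) held that of WT10 (720.1 to 829), and the MUT3 range lay below both. TNFRSF10A fell with dose in WT6 (slope -0.17, SE 0.05, limma adjusted p = 0.0137). The slope without WT6 at 5 and 25 ng/ml was 0.03 (limma adjusted p = 0.859), and with length and GC trends removed it was -0.19 and still called (0.00690). WT10 and MUT3 had slopes of -0.02 and 0.02, with 2 standard errors reaching from -0.12 to 0.09 and from -0.09 to 0.14. Genes annotated on the opposite strand overlap both TNFRSF10A and TNFRSF10B, and if the libraries carried no strand their reads cannot be told apart.

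The decoy TNFRSF10D, on the minus strand of chr8:22993101-23021540, was at 3075, 2753, 2391, 2236 and 2204 in WT6, lower at every next dose as were 8.76% of tested genes. In WT10 it was at 1513, 1482, 1517, 1401 and 1229.9, lowest at 25 ng/ml, and in MUT3 at 1598, 1554, 1654, 1601 and 1624, with no order by dose. TNFRSF10D fell with dose in WT6 (slope -0.10, SE 0.02, limma adjusted p = 0.00237) and was still called without WT6 at 5 and 25 ng/ml (-0.20, limma adjusted p = 0.0395), and lost without the untreated WT6 library (0.0535). With length and GC trends removed its WT6 slope was -0.07 and still called (limma adjusted p = 0.00403). TNFRSF10D was not called in WT10 (-0.07, SE 0.03, limma adjusted p = 0.0871). It passed there without WT6 at 5 ng/ml (0.0307), 25 ng/ml (0.0361) or both (0.00922). The WT10 slope also passed with length and GC trends removed (-0.06, limma adjusted p = 0.0243). Averaged over WT6 and WT10, its slope minus the MUT3 slope was -0.09 (SE 0.03, limma adjusted p = 0.0417). That call was lost in edgeR (adjusted p = 0.0584) and without any single MUT3 library, WT6 at 0 or 1 ng/ml, or WT10 at 1, 2.5, 5 or 25 ng/ml (limma adjusted p = 0.0524 to 0.348).

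The remaining decoys were low. TNFRSF10C, on the plus strand of chr8:22960434-22974958, was at 4.09 to 14.4 in WT6, 14.0 to 25.1 in WT10 and 4.44 to 16.8 in MUT3, from 3 to 44 reads in a library. Its WT6 mean of 8.80 was under the minimum of 10, so no test was made, and with so few reads its values are uncertain. In GENCODE 44, 27.6% of its 75-base windows also occur in genes annotated over it on the same strand. Whether the annotation used for counting held those genes is not known here, nor how far they touched its counts. TNFRSF11B, on the minus strand of chr8:119935796-119964124, was at 41.6, 57.6, 79.3, 58.6 and 53.6 in WT6, 121, 135, 156, 188 and 173 in WT10, and 179, 165, 185, 187 and 137 in MUT3. WT6 held less of it than the other clones at every dose, WT10 was lowest without doxycycline and MUT3 was lowest at 25 ng/ml. The WT10 slope was 0.11 (SE 0.05, limma adjusted p = 0.144) and the MUT3 slope -0.07 (SE 0.05, limma adjusted p = 1.00). The ratio of 25 to 0 ng/ml was 1.43 in WT10 (95% counting interval 1.12 to 1.83) and 0.767 in MUT3 (0.601 to 0.980), and the difference of these slopes was 0.18 (SE 0.07, limma adjusted p = 0.164). The WT6 slope was 0.04 (limma adjusted p = 0.669), and 0.51 (0.169) without WT6 at 5 and 25 ng/ml. In that fit the WT10 slope (0.11, limma adjusted p = 0.0411), its difference from MUT3 (0.18, 0.0352) and the difference of the averaged wild type slope from MUT3 (0.37, 0.0227) passed the threshold.

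The mix of the 4 membrane TRAIL receptors was compared per kb of transcript, since longer transcripts give more reads. TNFRSF10A and TNFRSF10B together made up 54.3 to 61.1% of the normalized count per kb in WT6, 74.9 to 77.2% in WT10 and 71.9 to 74.5% in MUT3. The 3 ranges did not overlap, but those of WT10 (from 74.9%) and MUT3 (up to 74.5%) nearly met, and no interval was computed. For single tested genes, ranges of 2 clones did not overlap in 37.1 to 53.0%. WT6 was the clone with the largest decoy share, nearly all of it TNFRSF10D. Within WT6 the share of TNFRSF10A and TNFRSF10B was 57.2, 58.8 and 61.1% at 0, 1 and 2.5 ng/ml. It was 54.3 and 56.2% at 5 and 25 ng/ml, the 2 libraries that stood apart by length. Division by transcript length does not remove that shift, so the WT6 shares and sums at these doses cannot be told apart from it. TNFRSF10B alone kept a narrow share in WT6, between 38.2 and 39.8%, and its share in WT10 was 61.3% without doxycycline and 56.4% at 25 ng/ml. The level per kb summed over TNFRSF10A and TNFRSF10B was 1173 without doxycycline and 807 at 25 ng/ml in WT6, 1407 and 1086 in WT10, and 1181 and 1263 in MUT3. In WT6 at 2.5 ng/ml, before the libraries that stood apart, this sum was 1070. Surface protein was not measured.

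**Figure D3:**
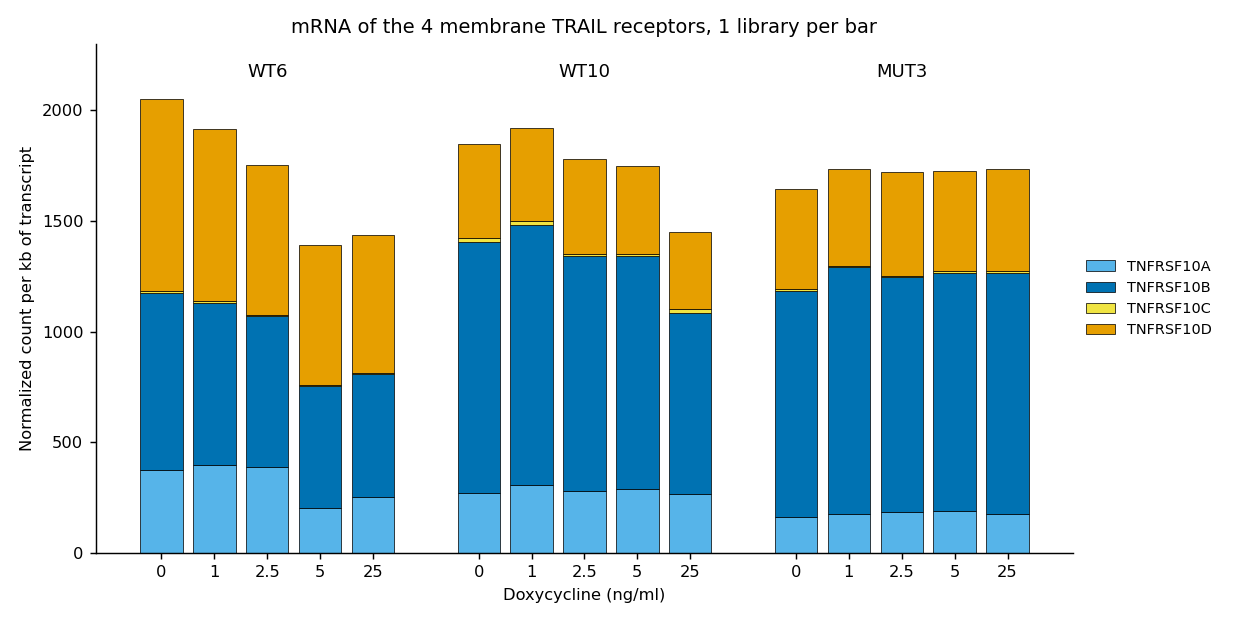
Normalized count per kb of transcript (vertical axis) of TNFRSF10A, TNFRSF10B, TNFRSF10C and TNFRSF10D, stacked, in each of the 15 libraries by clone and doxycycline dose in ng/ml (horizontal axis). The death domain receptors (light and dark blue) fill 54.3 to 61.1% of each WT6 bar and at least 71.9% of each WT10 and MUT3 bar; TNFRSF10C (yellow) is a thin band throughout.

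Outside the TRAIL branch, TNFRSF21 (DR6) had the steepest fall. It was at 3347, 3012, 2965, 2323 and 1604 in WT6, lower at every next dose. In WT10 it was at 1783, 1897, 1757, 1591 and 1455, and in MUT3 at 1404, 1473, 1347, 1497 and 1513. At 25 ng/ml the 3 clones lay between 1455 and 1604, while the untreated WT6 library was the highest of all 15. TNFRSF21 fell in WT6 (slope -0.23, SE 0.03, limma adjusted p = 1.29e-05), with a ratio of 25 to 0 ng/ml of 0.479 (95% counting interval 0.449 to 0.512). The WT10 slope was -0.08 (SE 0.03, limma adjusted p = 0.0608), with a ratio of 0.816 (0.759 to 0.877), and the MUT3 slope was 0.02 (SE 0.03), with a ratio of 1.08 (0.996 to 1.17). Averaged over the wild type clones, the slope minus that of MUT3 was -0.18 (SE 0.03, limma adjusted p = 0.00287), and WT6 minus WT10 was -0.16 (SE 0.04, limma adjusted p = 0.0227). Without WT6 at 5 and 25 ng/ml the WT6 slope was -0.10 (limma adjusted p = 0.367) and the difference between WT6 and WT10 was -0.02 (0.988), while the WT10 slope passed (-0.08, 0.00676) and the difference of the averaged slope from MUT3 was still called (-0.11, 0.0449). The WT6 fall held with length and GC trends removed (-0.20, limma adjusted p = 6.98e-06). WT6 minus WT10 was lost without WT6 at 25 ng/ml (0.172), WT10 at 0 ng/ml (0.139) or WT10 at 25 ng/ml (0.0591), and the difference from MUT3 without MUT3 at 25 ng/ml (0.169). The WT10 slope passed when WT6 at 2.5, 5 or 25 ng/ml was left out (limma adjusted p = 0.0289 to 0.0449).

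TNFRSF12A (Fn14), on the plus strand of chr16:3068446-3072384, had the highest level per kb of the 10 genes in each clone, with medians of 5092, 4071 and 4163 normalized counts per kb in WT6, WT10 and MUT3. Its counts were 4556, 4975, 4428, 6987 and 6198 in WT6, 4357, 3977, 3812, 3672 and 4032 in WT10, and 4191, 4055, 4067, 3949 and 4357 in MUT3. The 2 high libraries were WT6 at 5 and 25 ng/ml, the ones that stood apart by length, and at 977 bases this is the shortest transcript of the group. TNFRSF12A rose with dose in WT6 (slope 0.11, SE 0.04, limma adjusted p = 0.0207). That direction turned to a fall with length and GC trends removed (-0.06, limma adjusted p = 0.00952), and the slope was -0.02 (0.925) without the 2 libraries. The call was also lost without the untreated WT6 library (limma adjusted p = 0.0877). WT10 and MUT3 had slopes of -0.02 and 0.01 (SE 0.04 each). CLDN6 is annotated over TNFRSF12A on the opposite strand, and without strand in the libraries their reads cannot be told apart.

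FAS, on the plus strand of chr10:90750414-90775542, was at 182, 125, 152, 177 and 213 in WT6, 62.7, 68.5, 69.8, 83.4 and 75.6 in WT10, and 45.0, 36.6, 65.2, 57.9 and 45.0 in MUT3. WT6 was above the other clones in every library, and WT10 and MUT3 overlapped. ACTA2 and ENSG00000286116 are annotated over FAS on the opposite strand. If the libraries carried no strand, reads of these genes cannot be told apart from those of FAS, here or in the untreated levels below. The slopes were 0.10 in WT6 (SE 0.05, limma adjusted p = 0.126), 0.06 in WT10 (SE 0.07) and 0.03 in MUT3 (SE 0.08). TNFRSF1A, on the minus strand of chr12:6437923-6451280, stayed within 3159.6 to 3675 in WT6, 2341 to 2651 in WT10 and 2049.9 to 2422 in MUT3, with slopes of 0.02, -0.00 and 0.05 (SE 0.03 each). None of these 6 slopes passed, and 2 standard errors around the TNFRSF1A slopes spanned -0.03 to 0.08 in WT6, -0.05 to 0.05 in WT10 and -0.00 to 0.10 in MUT3. The WT6 slopes without WT6 at 5 and 25 ng/ml were -0.17 for FAS (limma adjusted p = 0.587) and -0.04 for TNFRSF1A (0.817), so both changed sign and neither was called. Under other settings 2 of the 6 passed, TNFRSF1A in WT6 with length and GC trends removed (-0.05, limma adjusted p = 0.0148) and FAS in WT6 without the untreated library (0.0146).

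Counted over the 9 tested genes, 6 were called in WT6, against 57.5% of all genes: 2 were higher, against 29.2%, and 4 lower, against 28.3%. In WT10 1 was called, lower, against 20.0% of all genes called and 9.83% called lower. The members' median slope was 0.02 in WT6, -0.02 in WT10 and 0.02 in MUT3, beside 0.01, -0.00 and 0.00 over all tested genes. The averaged wild type slope was called against MUT3 for 3 of 9, all lower, where 14.6% of all genes were lower and 24.6% differed in either direction. WT10 differed from MUT3 for 0 of 9 by limma, where 5.62% of all genes were called and 3 of the 9 had an unadjusted p under 0.05, for 0 by edgeR and for 1, TNFRSF10B, by DESeq2. WT6 differed from WT10 for 1 of 9, lower, where 14.4% of all genes differed and 7.09% were lower.

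**Figure D4:**
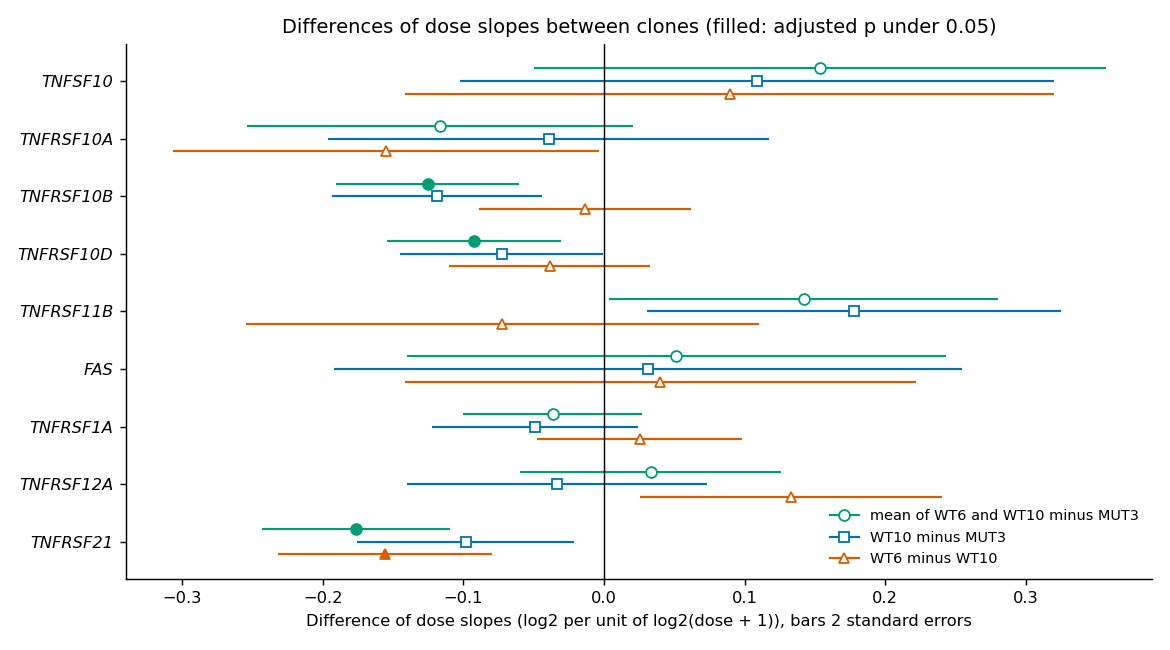
Difference of dose slopes between clones (horizontal axis, log2 per unit of log2(dose + 1)) for the 9 tested genes, with bars of 2 standard errors from the limma fit. Circles are the mean of WT6 and WT10 minus MUT3, squares WT10 minus MUT3 and triangles WT6 minus WT10; filled symbols, with adjusted p under 0.05, are TNFRSF10B, TNFRSF10D and TNFRSF21 for the first (-0.13, -0.09 and -0.18) and TNFRSF21 for the last (-0.16).

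Fitted levels without doxycycline were lower in WT6 than in WT10 for TNFSF10 (difference -1.93 log2, SE 0.32, limma adjusted p = 0.000109), TNFRSF11B (-1.26, SE 0.24, 0.000356) and TNFRSF10B (-0.64, SE 0.10, 4.08e-05). They were higher in WT6 for FAS (1.13, SE 0.24, limma adjusted p = 0.000888), TNFRSF21 (0.92, SE 0.10, 9.05e-07), TNFRSF10D (0.90, SE 0.09, 6.43e-07) and TNFRSF1A (0.38, SE 0.09, 0.00245). That is 7 of 9 genes, where 59.6% of all genes differed (30.8% higher and 28.8% lower). Between WT6 and MUT3, 8 of 9 differed (5 higher in WT6, 3 lower), against 61.7% of all genes (31.5% higher, 30.2% lower), and TNFRSF12A was the 1 that did not pass (0.17, SE 0.14, limma adjusted p = 0.291). WT10 and MUT3 differed for 3 of 9 (28.2% of all genes, 14.3% higher and 13.9% lower), all higher in WT10: TNFRSF10A by 0.76 (SE 0.20, limma adjusted p = 0.0113), TNFRSF21 by 0.42 (SE 0.10, 0.00498) and TNFRSF1A by 0.31 (SE 0.09, 0.0253). TNFSF10 was at 0.76 (SE 0.28, limma adjusted p = 0.0584) in that comparison. Counting all 10 genes, the ranges over the 5 libraries did not overlap for 7 between WT6 and WT10 (44.7% of tested genes), 8 between WT6 and MUT3 (53.0%) and 3 between WT10 and MUT3 (37.1%).

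Ordered by median level per kb, the genes in WT6 ran from TNFRSF12A (5092) through TNFRSF1A (1529), TNFRSF21 (825), TNFRSF10B (680.3), TNFRSF10D (677) and TNFRSF10A (376) to FAS (69.1), TNFRSF11B (27.6), TNFSF10 (8.63) and TNFRSF10C (5.36). TNFRSF10B and TNFRSF10D, and also TNFRSF21 and TNFRSF10B, were neighbours whose ranges overlapped in WT6. In WT10 the order was TNFRSF12A (4071), TNFRSF1A (1146), TNFRSF10B (1062), TNFRSF21 (489), TNFRSF10D (419), TNFRSF10A (279), TNFRSF11B (74.5), TNFSF10 (28.2), FAS (27.2) and TNFRSF10C (14.7). In MUT3 TNFRSF10B (1079) came ahead of TNFRSF1A (962), and TNFSF10 (17.7) and FAS (17.6) were level. The ligand thus stood near the bottom of the order in each clone.

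The genes whose log2 level over the 15 libraries was most like that of TNFSF10 were SLC39A7 (Pearson r = 0.962), FAM109A (0.959), IER2 (0.954), COL16A1 (0.954) and MAP3K8 (0.951). The 15 points share their clones, and the WT6, WT10 and MUT3 ranges of COL16A1 (19.7 to 42.4, 172 to 210.3 and 62.5 to 89.0) follow the same order as those of TNFSF10. Of the other members TNFRSF11B was nearest (0.68) and TNFRSF10D farthest (-0.89), as a description of 15 libraries dominated by clone.

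Downstream of the receptors, 35 genes of death receptor signalling were followed, of which 33 could be tested. In WT6, 13 were called higher and 6 lower, in WT10 9 and 4, and in MUT3 0 by limma, with medians of 0.06, 0.04 and 0.00. Of all tested genes, 29.2% were higher and 28.3% lower in WT6, and 10.2% were higher and 9.83% lower in WT10. In both wild type clones 4 were called higher and 3 lower, where 7.02% and 7.34% of all genes were. Against MUT3 the mean wild type slope was higher for 7 and lower for 3, where 10.1% and 14.6% of all genes were.

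CFLAR, which encodes the caspase 8 inhibitor cFLIP, rose in WT6 (slope 0.15, SE 0.03, limma adjusted p = 0.000905) and WT10 (0.13, SE 0.03, 0.00643). BID, the substrate of caspase 8 that carries the signal to mitochondria, rose in WT6 (0.16, SE 0.04, limma adjusted p = 0.00533) and WT10 (0.14, SE 0.04, 0.0337), but without WT6 at 5 and 25 ng/ml its WT6 slope was -0.01 (0.975), and that of CFLAR was 0.16 and not called (0.284). MAP3K7, the kinase TAK1, was at 862 without doxycycline and 265 at 25 ng/ml in WT6, at 722 and 419.7 in WT10 and at 860.4 and 857 in MUT3. It fell in WT6 (-0.36, SE 0.05, limma adjusted p = 3.95e-05) and WT10 (-0.17, SE 0.05, 0.0182), the latter through the 25 ng/ml library, without which the slope was 0.01. The WT6 slope of MAP3K7 without WT6 at 5 and 25 ng/ml was -0.17 (limma adjusted p = 0.444), and the averaged wild type slope no longer differed from MUT3 by the test (-0.16, 0.115). FAF1, a FAS-associated factor, fell in both (-0.13 and -0.10, limma adjusted p = 0.000392 and 0.0117), as did RNF31, a subunit of the linear ubiquitin ligase (-0.09 and -0.11, 0.0340 and 0.0321). Neither WT6 slope passed without WT6 at 5 and 25 ng/ml (-0.14 for FAF1, limma adjusted p = 0.187, and -0.06 for RNF31, 0.639). With length and GC trends removed the WT6 slope of FAF1 was -0.03 (limma adjusted p = 0.405) and its averaged wild type slope minus the MUT3 slope was -0.04 (0.369).

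The slopes of 6 genes of this list differed between WT6 and WT10 (2 higher in WT6, 4 lower, against 7.28% and 7.09% of all genes), among them XIAP, BIRC2 and TRADD. XIAP, a direct caspase inhibitor, rose in WT10 (slope 0.18, SE 0.03, limma adjusted p = 0.00142), from 1193 to 2120.0, and had a slope of 0.03 in WT6 (limma adjusted p = 0.441), and the difference of WT6 from WT10 was -0.15 (SE 0.05, 0.0476). BIRC2 (cIAP1) fell in WT6 (-0.25, SE 0.04, limma adjusted p = 7.53e-05), from 5303 to 2407, with -0.03 in WT10, a difference of -0.22 (SE 0.05, 0.0207). TRADD, the adaptor of TNF receptor 1, rose in WT6 (0.36, SE 0.04, limma adjusted p = 1.40e-05), with 0.11 in WT10 (0.0530), a difference of 0.25 (SE 0.06, 0.0198). Without WT6 at 5 and 25 ng/ml the WT6 slopes were 0.24 for XIAP (limma adjusted p = 0.0783), -0.04 for BIRC2 (0.811) and 0.23 for TRADD (0.364), and the differences of WT6 from WT10 were 0.06 (0.955), -0.01 (0.992) and 0.12 (0.952). With length and GC trends removed XIAP rose in WT6 as well (0.15, limma adjusted p = 1.70e-05), the differences of XIAP (-0.03, 0.442) and TRADD (0.10, 0.101) were lost, and that of BIRC2 was still called (-0.14, 0.00827). All 3 differences were lost without WT6 at 25 ng/ml (limma adjusted p = 0.247 for XIAP, 0.370 for BIRC2 and 0.0880 for TRADD) or WT10 at 0 ng/ml (0.188, 0.127 and 0.125), and that of XIAP was also lost without most other single libraries. Without WT10 at 25 ng/ml, the WT10 slopes of CFLAR, BID, FAF1, RNF31 and XIAP no longer passed (limma adjusted p = 0.632, 0.853, 0.611, 0.295 and 0.131). Without WT6 at 25 ng/ml, neither did the WT6 slopes of CFLAR (0.261), FAF1 (0.0905) and BIRC2 (0.106).

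**Figure D5:**
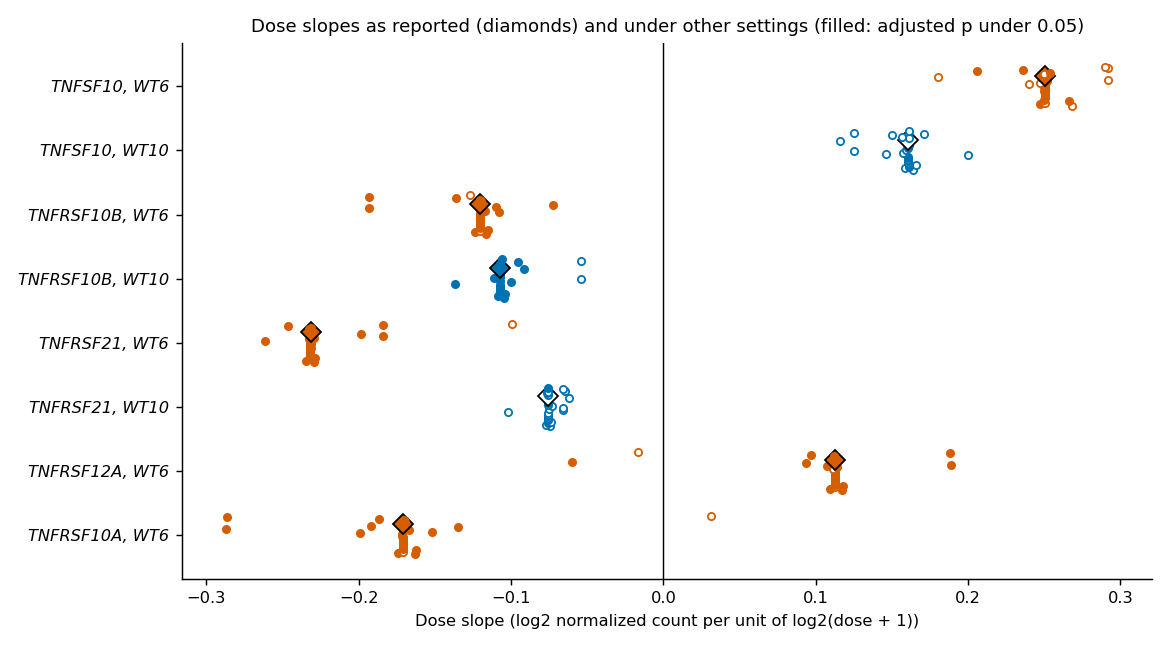
Dose slope (horizontal axis, log2 normalized count per unit of log2(dose + 1)) of 8 gene and clone pairs as reported (diamonds) and under 27 other settings (circles), in orange for WT6 and blue for WT10, filled where the adjusted p was under 0.05. The TNFRSF10B slopes stay below 0 throughout (-0.19 to -0.07 in WT6, -0.14 to -0.05 in WT10), and those of TNFRSF12A and TNFRSF10A in WT6 cross 0.

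Over 27 other settings that keep the dose scale, TNFRSF10B was called in 25 in WT6 and in 25 in WT10, with slopes of -0.19 to -0.07 and -0.14 to -0.05. TNFSF10 was called in 18 in WT6 (0.18 to 0.29) and in 2 in WT10 (0.12 to 0.20). These settings are not independent, since leaving out a library of another clone hardly moves a clone's own slope. With the RBM47 level in place of dose, neither TNFRSF10B slope passed (limma adjusted p = 0.221 in WT6 and 0.246 in WT10). In bulk RNA of a clone, fewer cells with an mRNA and less of it per cell cannot be told apart, and 1 library per clone and dose leaves the spread between cultures at a single dose unmeasured.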

How the data were processed

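PolyA RNA was sequenced as 75-base read pairs (Illumina TruSeq libraries). The authors mapped reads to hg19 with STAR 2.3.0, counted them per gene with HTSeq 0.5.4 at default settings and divided by DESeq size factors. The deposited values are this signal, normalized counts that were whole multiples of 1 read for 100% of values (tolerance 0.01), from which reads were recovered. HTSeq's 5 tallies were left out, and reads on no feature came to 56.5 to 59.6% of all reads tallied. Strandedness was not given in the sources used here.

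Limma 3.58.1 with vooma weights was fitted to log2(normalized count + 1) of the 15 libraries, each clone having its own level and its own slope on log2(dose + 1) (6 coefficients, 9 residual degrees of freedom), on 12644 genes with a mean of at least 10 in each clone. P-values were adjusted by Benjamini-Hochberg over all tested genes and called under 0.05. The fit assumes a straight line, and p-values measure scatter about it, not between replicate cultures. The procedure was tested on simulated counts with WT6 slopes larger than those of the members and with no shift by transcript length. That test therefore does not speak for the member calls. Intervals on single libraries and on ratios are exact and cover counting error only. EdgeR 4.0.16 and DESeq2 1.42.0 on recovered reads were alternatives. Transcript lengths and GC came from GENCODE 44 on GRCh37 (91.9% of genes matched).

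All 10 members were described. Of the 2 gene lists (death receptor signalling, and other TNF ligands and receptors), genes were named, up to 6 by size, when called in the same direction in both wild type clones or against MUT3. Members and lists were chosen with earlier results of these data known. Of the genes this rule names, 1 is not reported here.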

Additional observations from a re-analysis of the deposited data

Results flagged for a closer look

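The following dose slopes differed between clones by the limma test of the difference itself (adjusted p under 0.05). The mean wild type slope minus the MUT3 slope was -0.13 for TNFRSF10B, -0.09 for TNFRSF10D and -0.18 for TNFRSF21. In the signalling list it was 0.20 for TRADD, 0.15 for CFLAR (adjusted p = 0.00800), 0.15 for XIAP (0.0156), -0.18 for BIRC2, -0.10 for FAF1 (0.0181) and -0.26 for MAP3K7 (0.00505). Among other receptors it was -0.33 for TNFRSF11A and 0.22 for TNFRSF14. WT6 minus WT10 was -0.16 for TNFRSF21, -0.22 for BIRC2, 0.36 for TNFRSF14, 0.25 for TRADD and -0.15 for XIAP. Without the MUT3 library at 25 ng/ml the differences from MUT3 of TRADD (adjusted p = 0.294), CFLAR (0.163), XIAP (0.258), BIRC2 (0.185), FAF1 (0.217), MAP3K7 (0.159), TNFRSF11A (0.187) and TNFRSF14 (0.332) were lost, as were those of TNFRSF10B (0.224), TNFRSF10D (0.348) and TNFRSF21 (0.169). Without WT6 at 5 and 25 ng/ml those of TRADD (0.236), BIRC2 (0.269), MAP3K7 (0.115), TNFRSF11A (0.921) and TNFRSF14 (0.420) were lost, and with length and GC trends removed those of FAF1 (0.369) and TNFRSF14 (0.0663). The TNFRSF14 difference from MUT3 (adjusted p = 0.0497) was also lost without the filter (0.0616), with rank of dose (0.0527), with libraries paired by dose as a block (0.0610) and without most single libraries (0.0568 to 0.332). Its difference of WT6 from WT10 was lost without WT6 at 25 ng/ml (0.0764), without WT10 at 0 ng/ml (0.100) and without WT6 at 5 and 25 ng/ml (0.936). Without the 25 ng/ml libraries none of the differences from MUT3 of the 3 members passed (adjusted p = 0.204 for TNFRSF10B, 0.213 for TNFRSF10D and 0.269 for TNFRSF21).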

How the results depend on the processing

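The counts below are of the 9 tested members called. Without WT6 at 5 and 25 ng/ml, an alternative chosen after seeing the data, TNFRSF10C passed the filter as well, and of 10 members 1 was called in WT6 (1.41% of all genes), 4 in WT10 (38.8%), 4 between WT10 and MUT3 (24.1%), 0 between WT6 and WT10 (0.0318%), and 7 in the untreated level of WT10 against MUT3 (46.7%). With length and GC trends removed, 2 were called in WT10 (35.6% of all genes), 5 in mean wild type against MUT3 (35.9%) and 1 between WT10 and MUT3 (18.7%), where DESeq2 also called 1. Without 25 ng/ml, 0 were called in WT10, in mean wild type against MUT3 or in WT6 against WT10. With dose in ng/ml, 2 were called in WT6, 1 in mean wild type against MUT3 and 0 in WT6 against WT10, and with rank of dose 2 in the last. With the RBM47 level in place of dose, 0 were called in WT6, in WT10, in mean wild type against MUT3 or in WT6 against WT10. With each clone fitted alone, 1 was called in WT6 and 3 in WT10. The WT6 calls of TNFSF10 (limma adjusted p = 0.0605), TNFRSF10A (0.0999), TNFRSF10B (0.0525), TNFRSF10D (0.0769) and TNFRSF12A (0.135) were lost in that fit. Leaving out 1 library at a time gave 4 to 6 in WT6, 0 to 3 in WT10, 0 to 3 in mean wild type against MUT3, 0 to 1 in WT10 against MUT3, 0 to 3 in WT6 against WT10, and 1 to 6, 7 to 8 and 8 to 8 in the untreated levels of WT10 against MUT3, WT6 against WT10 and WT6 against MUT3.

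Among slopes called in either fit, direction turned in WT6 without its libraries at 5 and 25 ng/ml for TNFRSF10A (0.031), TNFRSF12A (-0.017), BID (-0.0088) and TNFRSF11A (0.29), and in WT6 minus WT10 for XIAP (0.062). Among those called in neither, it turned in WT6 for FAS (-0.17) and TNFRSF1A (-0.035). With length and GC trends removed, slopes called in either fit turned in WT6 for TNFRSF1A (-0.045) and TNFRSF12A (-0.060), and for TNFRSF12A in mean wild type minus MUT3 (-0.063). The MAP3K7 slope in WT10 was 0.012 without 25 ng/ml, and -0.25 to 0.012 when 1 library was left out. The cause was not tested beyond these fits. Of 2403 member results under alternatives, 2214 kept direction and call, 56 gained a call, 70 lost one, 5 turned direction with a call in either fit, and 58 changed sign with a call in neither. Over all genes, 177 were called in WT6 without its 5 and 25 ng/ml libraries, 17 in WT10 and 1 in mean wild type against MUT3 without 25 ng/ml. The labels give no replicate numbers, but each dose occurs once in each clone. With libraries paired by dose as a block, a fit chosen after seeing the data that leaves 6 residual degrees of freedom and tests differences between clones only, 3 members were called in mean wild type against MUT3 (beside 3667 of all 12644 genes), 0 between WT10 and MUT3 (1012) and 1 between WT6 and WT10 (2455), with the calls of TNFRSF10B (-0.13, limma adjusted p = 0.0143), TNFRSF10D (-0.092, 0.0440) and TNFRSF21 (-0.18, 0.00317, and -0.16, 0.0206) as in the fit without the block. TNFSF10 and TNFRSF10C, with 3 to 159 reads, are limited by depth.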

Other observations

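Of 36 other TNF superfamily ligands and receptors, 10 were expressed highly enough in every clone to be tested. In WT6, 3 were called higher and 1 lower, in WT10 1 and 1, and in MUT3 0 by limma, where 29.2% of all tested genes were higher and 28.3% lower in WT6, and 10.2% and 9.83% in WT10. TNFRSF11A (RANK), the receptor of the ligand that osteoprotegerin also binds, was at 135, 174, 194, 64.0 and 49.8 normalized counts in WT6, 394, 379, 339, 292 and 212 in WT10, and 439 to 527 in MUT3. It fell in WT6 (slope -0.34, SE 0.10, limma adjusted p = 0.00720) and in WT10 (-0.20, SE 0.07, 0.0475, lost without any single WT10 or MUT3 library), but without WT6 at 5 and 25 ng/ml the WT6 slope was 0.29 and the difference from MUT3 was no longer called (adjusted p = 0.921). TNFSF4 (OX40 ligand) rose in WT6 (0.34, SE 0.10, limma adjusted p = 0.00993) and WT10 (0.30, SE 0.10, 0.0366), from at most 58 reads in a library, and was lost in WT10 without its 25 ng/ml library (0.835), and its difference from MUT3 was 0.11 (SE 0.13). The WT6 slope of TNFSF4 without WT6 at 5 and 25 ng/ml was 0.73 and not called (limma adjusted p = 0.256). TNFRSF14 (HVEM) rose in WT6 (0.43, SE 0.06, limma adjusted p = 6.37e-05), from 36.2 to 156, with a slope of 0.07 in WT10 (0.308), and without WT6 at 5 and 25 ng/ml its WT6 slope was 0.31 and not called (0.488).

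The ligands TNF and FASLG, which bind TNFRSF1A and FAS, had at most 4 reads and 1 read in any library. TNFSF10 had at least 10 reads in each library.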
